A study of Mus musculus with 45 samples.

Results

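The genes described here are the receptors that bind retinoic acid (RA) and their partners, together with a pair of corepressors: Rara, Rarb and Rarg (the RARs), Rxra, Rxrb and Rxrg (the RXRs), Nrip1 and Ncor1. They were chosen by name and are 8 of the 54532 genes in the count table. RNA was sequenced from neural tube organoids grown from R1, an established mouse embryonic stem cell line of WT genotype, by clonal growth in Matrigel in N2B27 medium. Libraries were made at day 2, before treatment, and at 7 later times, of which the first was 8 h and the last 78 h after day 2 (with 18, 30, 42, 54 and 66 h between them), either untreated (N2B27) or with all-trans RA added at day 2 (N2B27+RA, 250 nM). Each of these 15 conditions had 3 biological replicates, which gave 45 libraries. The treatment protocol in the sample labels writes the RA dose as 250 µM and gives partly other times, and the dose and times of the study's methods and sample titles were used. Since 1 cell line was used and each library pooled many organoids, spread between libraries is spread between cultures of that line, and a difference in RNA per cell cannot be told apart from a difference in the share of cells that hold it.

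RARs are nuclear receptors that sit on DNA as dimers with an RXR, typically at direct repeats of a short half-site. Without ligand the dimer recruits corepressors such as Ncor1, which bring histone deacetylases, and binding of all-trans RA exchanges these for coactivators. Nrip1 differs from Ncor1 in that it is recruited by receptors that have bound their ligand, and so acts as a brake on active receptors. In the neural tube, RA signalling patterns the hindbrain and spinal cord, and Rarb is a textbook direct target of RA.

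Rarb carries a well-known RA response element in its promoter, so the sequence before its start is shown. RefSeq lists 1 promoter for Rarb here, at a start that lies inside the span of the gene, since some GENCODE transcripts of Rarb begin further upstream. The 250 bases before that start (GRCm38.p6, chr14:16575477-16575726, minus strand) read as follows, with the half-sites of a direct repeat in capitals.

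Rarb upstream sequence: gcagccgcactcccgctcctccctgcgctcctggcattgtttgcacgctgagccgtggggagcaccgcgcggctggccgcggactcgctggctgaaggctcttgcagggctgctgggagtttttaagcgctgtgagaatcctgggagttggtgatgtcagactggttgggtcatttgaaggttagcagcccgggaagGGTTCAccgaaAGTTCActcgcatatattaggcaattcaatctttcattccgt

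The half-sites GGTTCA and AGTTCA lie 5 bases apart, from base -53 to base -37 before the start. Half-sites were searched on both strands as NGNTCA with A or G at the first N and G or T at the second, in direct repeats with 1, 2 or 5 bases between them (DR1, DR2, DR5), and other arrangements were not searched. A DR5 was present in 0.0883% of 32851 mouse promoters of this length, a DR2 in 0.174% and a DR1 in 0.164%. Of the 17 promoters RefSeq lists for the 8 genes, the Rarb promoter held a DR5 and none held a DR1 or DR2. A match describes the letters of the window and was not tested as a binding site.

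On GRCm38, Rara lies at chr11:98927818-98974942 and Rarb at chr14:16430839-16819156, with Rarg at chr15:102234938-102257517. Rxra spans chr2:27676440-27762957, Rxrb chr17:34031812-34038399 and Rxrg chr1:167598384-167639623, while Nrip1 is at chr16:76287400-76373827 and Ncor1 at chr11:62316426-62458541. Counts were taken over exons of whole genes, so alternative transcripts of a receptor were summed. The exons of Rarb share 1793 of their 5265 bases with exons of Top2b on the opposite strand, and Top2b reached 19210 counts in a library where Rarb had far fewer. The libraries were directional, but the strand setting of the counting is not given in the sources used here, so reads in the shared stretch may have been assigned to neither, either or the wrong gene. Ncor1 shares 82 bases with Pigl and 1 base with Ttc19.

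Totals ran from 17298632 to 39688686 counts per library, and the floor of detection, 3 counts, equals 0.0756 to 0.173 CPM (counts scaled to library size). The markers of the labelled tissue were present, but unevenly in time. Sox1, a defining neuroepithelial gene, averaged 2.13 CPM, here after TMM normalization, at day 2, 166 CPM in untreated organoids at 78 h and 94.6 CPM in RA-treated organoids at 78 h. Pou5f1, a pluripotency gene, averaged 996 CPM at day 2 and was still at 277 CPM and 93.8 CPM in these groups at 78 h. Before that, Sox1 was higher with RA at 18, 30, 42 and 54 h by the test described below. At 42 h it averaged 167 CPM with RA and 85.6 CPM untreated. At 66 h, as at 78 h, it was lower with RA. Other markers went other ways at 78 h. Of 5 neuroepithelial markers (Sox1, Sox2, Pax6, Nes, Cdh2), Nes was higher with RA and Sox1 lower by the test described below. Their summed CPM averaged 926 untreated and 1060 with RA. Of 5 pluripotency markers (Pou5f1, Nanog, Zfp42, Esrrb, Klf4), 2 were higher (Esrrb, Klf4) and 1 lower (Pou5f1), when 33.4% of all genes were called. A check on 4 Y chromosome genes parted the libraries: 39 had a mean of 22.6 to 89.9 CPM, whereas 6 had 1.22 to 3.73 CPM. The latter were each untreated 30 h library, replicates 1 and 3 of RA 30 h and replicate 3 of RA 8 h. RA 8 h replicate 3 and RA 30 h replicate 2 thus differed in this level from the other libraries of their groups. They also differed in the summed CPM of 5 markers of surface or extraembryonic epithelium (Krt8, Krt18, Cdx2, Gata3, Tfap2c), which was 61.4 in RA 8 h replicate 3 against 143 and 137 in the other libraries of that group, and 202 in RA 30 h replicate 2 against 51.5 and 49.1. For each of the 8 genes, the comparisons at 8 h and 30 h are given both with these libraries and without them.

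At each time, RA-treated libraries were set against untreated ones by the quasi-likelihood test of edgeR. A gene counted as called where its adjusted p (Benjamini-Hochberg, over all genes tested) was under 0.01. All 8 genes passed the filter on low counts at all 7 time points. At 8 h, 3 of the 8 were called, Rarb, Nrip1 and Rara, each higher with RA, against 3.14% of the genes tested. Rarb and Nrip1 also passed a log2 fold change limit of 1, as did 1.8% of genes. At 18 h, 6 of the 8 were called, when 42.6% of genes were, and 3 of them (Rarb, Nrip1, Rxrg) passed the fold limit, when 10.9% did. The same 6 genes were called at each later time: Rarb, Nrip1, Rara and Rxra were higher and Rarg and Rxrg lower. The share of all genes called was 14.1% at 30 h, 37.5% at 42 h, 38.7% at 54 h, 33.3% at 66 h and 33.4% at 78 h. With the fold limit, the members called numbered 5 at 30 h, 4 at 42 h, 4 at 54 h, 4 at 66 h and 2 at 78 h, against 8.45%, 12.5%, 13.2%, 11.5% and 11.7% of genes. Rxrb and Ncor1 were not called at any time point by this test. Over the genes tested, the median log2 fold change lay between -0.0057 and 0.041 in these comparisons, close to no shift. With 3 libraries a group, an exact permutation test of a single gene cannot go below p = 0.1, and it reached that value wherever the groups did not overlap. Such separation was common over all genes tested. At 8 h it held for 38.1% of them and 5 of the 8 members, and at 18 h for 61% and 7 members. From 30 h on it held for 6 members at each time. The shares of all genes were then 48.2%, 58.7%, 59.8%, 55.1% and 56.2% at 30, 42, 54, 66 and 78 h.

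**Figure D1:**
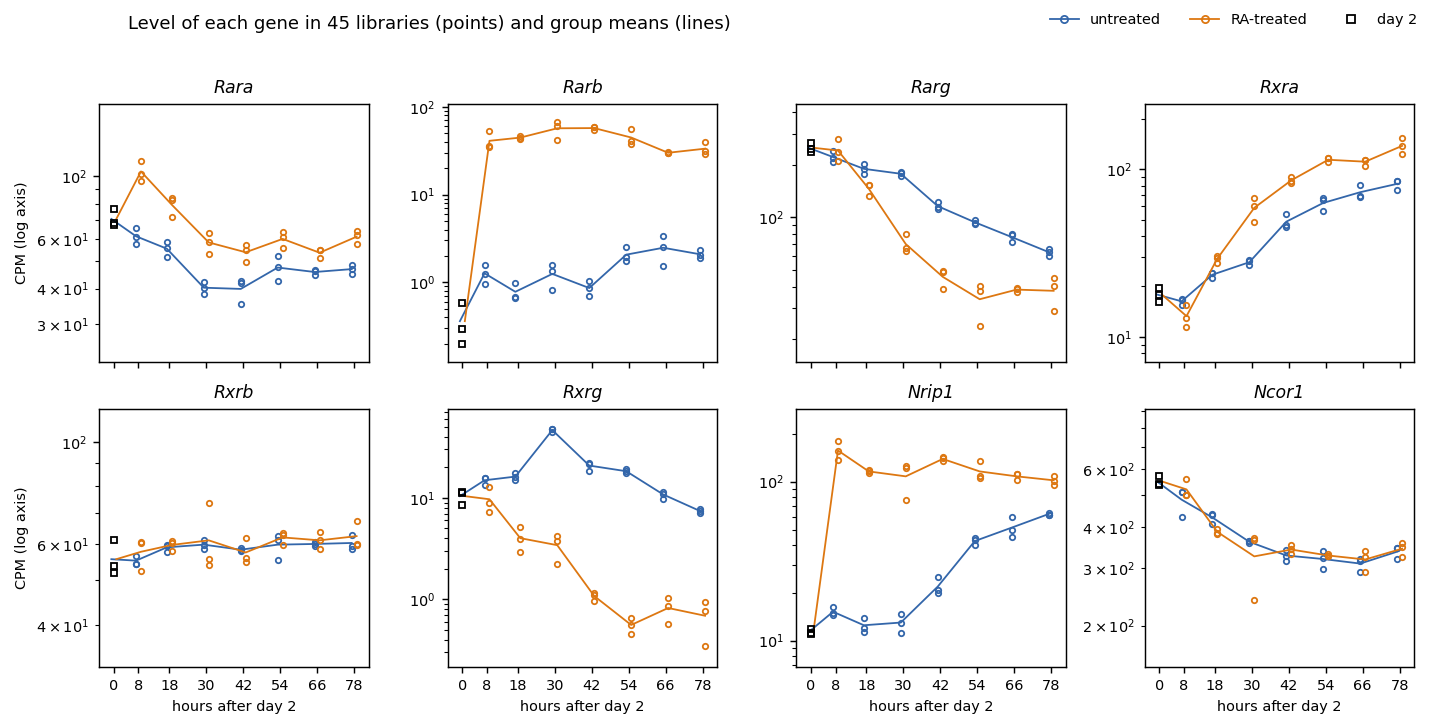
CPM (log axis) of the 8 genes against hours after day 2. Circles are single libraries (blue untreated, orange RA-treated), squares are the 3 day 2 libraries and lines join group means. Rarb and Nrip1 separate from 8 h, Rxrg falls with RA while untreated libraries peak at 30 h, and Rxrb and Ncor1 overlap at most times.

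Rarb, the RAR whose gene is itself induced by RA, was close to the limit of detection before treatment and high in every RA-treated library. At day 2 it had 14, 4 and 7 counts in the 3 libraries, or 0.588, 0.201 and 0.295 CPM. At 8 h, untreated libraries had 1.57, 1.26 and 0.971 CPM and RA-treated libraries 34.7, 35.8 and 52.3 CPM. The lowest RA-treated library was thus many times above the highest untreated one, and the same separation was seen at each later time. The log2 fold change was 5.03 ± 0.25 (SE) at 8 h, a 32.7-fold difference, with an adjusted p of 8.7e-05. It was 5.87 ± 0.11 at 18 h, 5.52 ± 0.29 at 30 h and 6.03 ± 0.11 at 42 h, the last being 65.6-fold with an adjusted p of 3.6e-10. Without RA 30 h replicate 2 the log2 value at 30 h was 5.71, and without RA 8 h replicate 3 the value at 8 h was 4.82.

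The difference in Rarb was smaller at the later times. RA-treated libraries had 55.1, 40.6 and 38.1 CPM at 54 h, 30.2, 29.7 and 29.9 CPM at 66 h and 29.1, 31.5 and 39.2 CPM at 78 h, against 1.90, 2.32 and 2.06 CPM in untreated libraries at 78 h. Both arms contributed, with lower RA-treated libraries and higher untreated ones than at 42 h, when untreated libraries had 0.860, 1.03 and 0.695 CPM. The log2 fold change was 4.39 ± 0.18 at 54 h, 3.58 ± 0.18 at 66 h and 3.98 ± 0.14 at 78 h (adjusted p 2.7e-09). The effect at 78 h was 1.84 log2 units below that at 18 h (-1.84 ± 0.35, adjusted p 1.2e-04, 42 libraries in the fit). Over the 15 conditions, mean Rarb varied 158-fold, from day 2 to RA 42 h, and the lowest RA-treated group did not overlap the highest untreated group.

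Top2b, which encodes a DNA topoisomerase and shares exon bases with Rarb, moved far less between arms. Its log2 fold change with RA was 0.77 at 8 h (adjusted p 0.11), 0.40 at 18 h (adjusted p 0.00067) and between 0.0036 and 0.20 at later times, none of which passed. Along the untreated course Top2b averaged 104 CPM at day 2 and 341 CPM at 78 h, while Rarb in the same libraries had at most 110 counts against 2012 to 12664 counts of Top2b. Both genes were thus higher untreated at 78 h than at day 2, but they did not move in step between. Untreated Top2b averaged 416 CPM at 30 h, 293 CPM at 42 h and 288 CPM at 54 h. Untreated Rarb averaged 1.25, 0.863 and 2.07 CPM at these times. The part of shared reads in the low untreated Rarb counts was not tested.

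Rara, the RAR that most tissues carry, was higher with RA by a small amount at every time. At 8 h, untreated libraries had 57.5, 60.8 and 65.7 CPM and RA-treated libraries 102, 96.3 and 113 CPM, a log2 fold change of 0.77 ± 0.09 (adjusted p 0.0025). The groups did not overlap there, nor at any later time. The log2 difference was 0.53 ± 0.07 at 18 h (adjusted p 3.2e-05) and 0.52 ± 0.10 at 30 h, and it lay between 0.21 and 0.42 from 42 h to 78 h. At 66 h it was 0.21 ± 0.05, with 44.7, 46.1 and 46.5 CPM in untreated and 51.4, 54.7 and 54.7 CPM in RA-treated libraries (adjusted p 0.0062). The calls at 8, 30, 54 and 66 h were near the limit: leaving out RA 8 h replicate 1 or any of the 3 untreated 8 h libraries gave adjusted p between 0.0117 and 0.0274. Without RA 8 h replicate 3, one of the pair of libraries that stand apart, the call at 8 h stayed (0.70, adjusted p 8.63e-07), as did that at 30 h without RA 30 h replicate 2, the other (0.45, adjusted p 5.72e-05). Leaving out RA 30 h replicate 1 or 3 or any of the untreated 30 h libraries gave 0.0119 to 0.0612. Leaving out RA 54 h replicate 2 or 3 or untreated 54 h replicate 1 or 2 gave 0.0218 to 0.0333, and leaving out RA 66 h replicate 2 or 3 or untreated 66 h replicate 1 or 2 gave 0.0146 to 0.0318. Against day 2, Rara fell in untreated organoids, by 0.34 ± 0.07 log2 units at 18 h and by 0.79 ± 0.07 at 42 h.

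Rarg was the most abundant RAR at day 2 and fell in both arms, further with RA. The day 2 libraries had 248, 237 and 268 CPM. At 8 h the arms overlapped, with 208, 220 and 239 CPM untreated and 237, 210 and 281 CPM with RA (log2 0.14 ± 0.11, adjusted p 0.46, and 0.019 without RA 8 h replicate 3). From 18 h on, each RA-treated library lay below each untreated library of its time. The log2 fold change was -0.37 ± 0.07 at 18 h (adjusted p 4.3e-04), and this call was lost in a fit of all 45 libraries together (adjusted p 0.0156). At 30 h, untreated libraries had 173, 182 and 179 CPM and RA-treated libraries 66.6, 80.0 and 64.4 CPM, a log2 fold change of -1.36 ± 0.11 (2.56-fold lower, adjusted p 1.9e-04, and -1.46 without RA 30 h replicate 2). The deepest difference was at 54 h, -1.49 ± 0.14, when RA-treated libraries had 23.8, 37.6 and 40.3 CPM and untreated libraries 91.5, 93.4 and 96.5 CPM. At 78 h the values were 44.6, 40.2 and 29.0 CPM with RA and 63.4, 66.1 and 60.0 CPM without, a log2 fold change of -0.73 ± 0.12. Between 54 h and 78 h the RA-treated groups overlapped while the untreated level went on falling.

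To compare the receptors with each other, counts were divided by the length of the merged exons (RPKM). At day 2, Rarg made up 78.4% ± 0.3 (SD, n = 3) of the summed RPKM of the RARs, Rara 21.5% ± 0.3 and Rarb 0.0915% ± 0.0522. In untreated organoids at 78 h the shares were 57.1% ± 0.9 for Rarg, 41.4% ± 1.0 for Rara and 1.53% ± 0.14 for Rarb. With RA at 78 h, Rara held the largest share at 47.9% ± 2.8, followed by Rarg at 30.4% ± 6.3 and Rarb at 21.6% ± 3.6, and the ranges of the latter pair overlapped. At 42 h with RA the shares of the 3 RARs were nearly even, 36.4% ± 1.9 for Rara, 32.0% ± 1.9 for Rarb and 31.6% ± 3.6 for Rarg. The summed level went from 75.1 ± 4.8 RPKM at day 2 to 26.0 ± 1.0 untreated and 29.2 ± 0.4 RA-treated at 78 h. RA-treated organoids thus had a sum of the same order with another make-up, with libraries from 24.8 to 26.7 RPKM untreated and from 28.9 to 29.6 RPKM with RA. Exon bases shared with Top2b are part of the length used for Rarb.

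**Figure D2:**
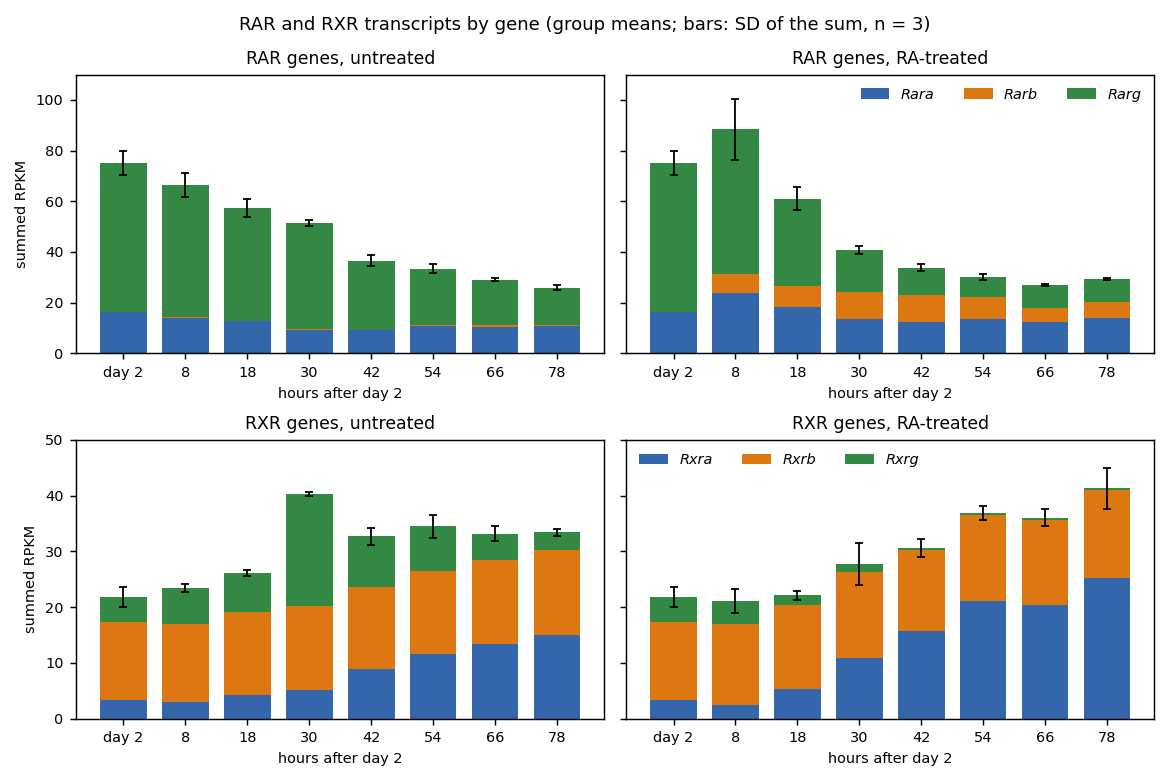
Mean RPKM (CPM per kilobase of merged exon) of the RAR genes (upper panels) and RXR genes (lower panels), stacked by gene, at day 2 and at each hour after it, untreated on the left and RA-treated on the right. Bars start at 0 and error bars are the SD of the summed RPKM over 3 libraries. Rarb is visible in the RA-treated panel and Rxrg in the untreated one.

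Rxra, one of the broadly expressed RXR partners, rose along both arms and further with RA. It had 17.7, 16.2 and 19.7 CPM at day 2. At 8 h it was not called, with 16.9, 16.5 and 15.5 CPM untreated and 15.5, 13.0 and 11.4 CPM with RA (log2 -0.28 ± 0.14, adjusted p 0.23, and -0.18 without RA 8 h replicate 3). At 18 h the sign was the other way: 24, 22.4 and 23.9 CPM untreated and 30.5, 27.7 and 29.6 CPM with RA, a log2 fold change of 0.33 ± 0.06 (adjusted p 7.7e-04). This call, like that of Rarg, was lost in the fit of all 45 libraries, at an adjusted p of 0.0125. The log2 fold change was 1.06 ± 0.13 at 30 h, when RA-treated libraries had 60.3, 67.4 and 48.8 CPM against 28.2, 28.6 and 26.7 CPM. Leaving out untreated 30 h replicate 1, 2 or 3 gave adjusted p between 0.0124 and 0.0131 there, while without RA 30 h replicate 2 the log2 value was 0.95 and the adjusted p 3.69e-08. Later log2 differences lay between 0.59 and 0.84, and at 78 h libraries had 75.6, 84.7 and 85.4 CPM untreated and 123, 137 and 154 CPM with RA (0.75 ± 0.08, adjusted p 1.4e-05).

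Markers of other epithelia also differed between the arms at 18 h and from 42 h on, but not all in the direction of Rxra. Of 5 surface or extraembryonic epithelium markers, 4 were higher with RA at 18, 42, 54 and 66 h. At 18 h these were Cdx2, Gata3, Krt8 and Tfap2c, and at the other times Gata3, Krt18, Krt8 and Tfap2c. Cdx2, higher at 18 h, was lower at 42 h and 54 h. The shares of all genes called were 42.6%, 37.5%, 38.7% and 33.3% at 18, 42, 54 and 66 h. The summed CPM of the 5 surface or extraembryonic epithelium markers ranged from 38.9 to 78.7 in the 21 untreated libraries and from 49.1 to 523 in the 21 RA-treated ones, and at 78 h 5 of the 5 were higher with RA, among them Krt8 at a mean of 217 CPM against 17.7 CPM. At 30 h, 4 of these 5 were tested and none was called. The RA-treated libraries were spread there, with a summed value of 202 CPM in RA 30 h replicate 2. The missing calls thus do not show that the arms were equal. RA 30 h replicates 1 and 3 had 51.5 and 49.1 CPM. These lay above the 38.9 to 40.4 CPM of the untreated 30 h libraries but within the range of all untreated ones. At 78 h, 3 of 5 endoderm markers and 4 of 4 neuronal markers were also higher with RA, when 33.4% of all genes were called. Of the endoderm markers, none was called at 30 h. Neuronal markers went the other way at earlier times, with Elavl3 lower at 30 h and Elavl3 and Tubb3 lower at 42 h. The summed endoderm list ranged from 4.68 to 29.7 CPM with RA and from 1.02 to 4.76 CPM without. No marker of these lists was at 0 in every library of either arm at 78 h. The part of such cells in the values of Rxra and the other genes was not tested.

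Rxrb, the RXR gene with the steadiest expression here, varied little throughout. Over all 45 libraries it ran from 52.0 to 73.8 CPM with a median of 59.6 CPM, the highest being RA 30 h replicate 2. Its means over the 15 conditions differed by at most 1.13-fold and each neighbour in their order overlapped the next. The log2 fold change with RA lay between -0.03 and 0.08 at the 7 time points, with SE between 0.05 and 0.13 and adjusted p from 0.55 to 0.93, and at 8 h it was 0.043 without RA 8 h replicate 3. At 30 h the sign depended on a single library, with 0.02 ± 0.13 in the 6 libraries and -0.14 without RA 30 h replicate 2 (adjusted p 0.0757). A p that misses the threshold does not show that the arms were equal, and the errors leave room for small differences in either direction.

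Rxrg, the RXR with the most restricted expression in the body, went down with RA by the largest fold among the 8 genes. At day 2 it had 8.57, 11.3 and 11.2 CPM. At 8 h it had 15.7, 13.3 and 15.6 CPM untreated and 8.92, 7.33 and 12.8 CPM with RA. Each RA-treated library was below each untreated one, but the log2 difference of -0.60 ± 0.21 was not called (adjusted p 0.11). Without RA 8 h replicate 3, the library with 12.8 CPM, it was -0.85 with an adjusted p of 5.96e-05.

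From 18 h on Rxrg was called at every time. At 18 h, 17.5, 15.1 and 16.1 CPM untreated stood against 3.91, 2.96 and 5.15 CPM with RA (log2 -2.01 ± 0.15, adjusted p 1.9e-07). Untreated libraries then reached 47.3, 45.0 and 47.2 CPM at 30 h, apart from every other condition, and had 18.6, 21.8 and 21.9 CPM at 42 h. The untreated 30 h libraries are among those with low Y chromosome genes, so the peak and that difference between libraries fall together, and the part of the latter was not tested. RA-treated libraries at 30 h had 4.25, 2.21 and 3.78 CPM, a log2 fold change of -3.78 ± 0.23, or -3.55 between the libraries with low Y chromosome genes alone, that is without RA 30 h replicate 2. The difference was deepest at 54 h: 18.2, 17.4 and 19.3 CPM untreated against 0.461, 0.557 and 0.662 CPM with RA, 32.9-fold lower (log2 -5.04 ± 0.15, adjusted p 3.2e-09). At 78 h, 7.03, 7.50 and 7.70 CPM stood against 0.768, 0.952 and 0.349 CPM (log2 -3.41 ± 0.23, adjusted p 5.7e-07), where the lowest RA-treated library of the series had 10 counts. The RA effect at 78 h was more negative than that at 18 h, by -1.36 ± 0.32 log2 units (adjusted p 0.0013).

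A neural crest list of 3 genes also differed between the arms at the early times. Its summed CPM ranged from 5.34 to 56.1 in untreated libraries and from 1.96 to 9.65 in RA-treated ones. At 18 h, Foxd3 and Tfap2a were lower and Sox10 higher, when 42.6% of all genes were called. Sox10, the defining gene of the list, averaged 0.331 CPM untreated and 1.53 CPM with RA. By 78 h the summed lists overlapped in range with 5.34 to 6.77 CPM untreated and 6.57 to 8.87 CPM with RA. Within the list at 78 h, Foxd3 was lower and Tfap2a higher with RA, when 33.4% of all genes were called. Most of the sum was Foxd3 at day 2, with 72.9 of 78.8 CPM, when Sox10 averaged 0.3 CPM. The same held in untreated libraries at 18 h, with 44.6 of 48.1 CPM, so the sum largely follows Foxd3 there. Whether the list marks neural crest cells here was not tested, nor was a part of such cells in the values of Rxrg.

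In RPKM, Rxrb was the largest part of the RXR sum at day 2, 64.2% ± 1.8 (SD, n = 3), followed by Rxrg at 20.7% ± 2.6 and Rxra at 15% ± 0.9. In untreated organoids Rxrg was 50.1% ± 1.3 at 30 h and was 9.66% ± 0.29 at 78 h, when Rxra and Rxrb were level at 44.9% ± 2.2 and 45.5% ± 2.5. With RA, Rxrg was 7.84% ± 1.88 at 18 h, 1.53% ± 0.09 at 42 h and 0.747% ± 0.363 at 78 h. Rxra made up 61.1% ± 1.6 of the sum at 78 h with RA, so that Rxra and Rxrb together held nearly all of it. The sum went from 21.8 ± 1.8 RPKM at day 2 to 33.4 ± 0.6 untreated and 41.3 ± 3.7 RPKM with RA at 78 h, while that of the RARs went down.

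Nrip1, the ligand-dependent corepressor, was among the genes with a large early difference. At day 2 it had 11.2, 11.8 and 11 CPM. At 8 h it had 14.9, 16.2 and 14.4 CPM untreated and 137, 155 and 180 CPM with RA, 10.5-fold higher (log2 3.39 ± 0.12, adjusted p 1.9e-05, and 3.28 without RA 8 h replicate 3). At 18 h, 13.9, 11.4 and 12.1 CPM stood against 117, 113 and 119 CPM (log2 3.24 ± 0.07, adjusted p 1.6e-12). The arms were separate at each of the 7 times, but the distance closed. The log2 fold change was 3.04 ± 0.22 at 30 h (3.22 without RA 30 h replicate 2, which had 76.7 CPM against 122 and 125 CPM), 2.66 ± 0.08 at 42 h, 1.44 ± 0.09 at 54 h and 1.06 ± 0.09 at 66 h. At 78 h libraries had 62.1, 62.1 and 63.6 CPM untreated and 95.6, 101 and 109 CPM with RA, a 1.63-fold difference (log2 0.70 ± 0.06, adjusted p 2.2e-06).

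The closing distance came mostly from untreated organoids. Untreated Nrip1 stayed between 11.1 and 16.2 CPM up to 30 h and then rose, with group means of 21.9 ± 2.8 (SD, n = 3) CPM at 42 h, 42.3 ± 2.3 at 54 h, 51.4 ± 7.7 at 66 h and 62.6 ± 0.9 at 78 h. RA-treated means went from 157 ± 21 CPM at 8 h to 102 ± 7 CPM at 78 h, and 5 of the 6 neighbouring pairs in their order overlapped in their libraries, RA 42 h and RA 18 h being the pair that did not. The RA effect at 78 h was 2.49 log2 units below that at 18 h (-2.49 ± 0.19, adjusted p 2.2e-12). Nrip1 and Rarb are thus a pair in which RA-treated libraries were high from the first time point, but untreated Rarb remained at a few CPM where untreated Nrip1 came within 1.63-fold of the RA-treated level.

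Ncor1, which carries histone deacetylase complexes to receptors without ligand, fell along both arms by a like amount. The day 2 libraries had 541, 573 and 537 CPM, and at 78 h libraries had 320, 344 and 344 CPM untreated and 324, 348 and 356 CPM with RA. The arms overlapped at 6 of the 7 times. At 18 h, 439, 408 and 434 CPM untreated stood above 384, 394 and 380 CPM with RA, a log2 difference of -0.14 ± 0.05 that was not called (adjusted p 0.025). DESeq2 on the same libraries called it (-0.17, adjusted p 0.00533), as did edgeR without untreated 18 h replicate 2 (-0.17, adjusted p 0.00512). At 30 h the value of -0.16 ± 0.16 rested on RA 30 h replicate 2, with 240 CPM against 364 and 370 CPM, and was 0.01 without it. At the other times the log2 fold change lay between 0.02 and 0.12 with SE of 0.05 to 0.10, and the 0.12 at 8 h was 0.057 without RA 8 h replicate 3.

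Whether the RA effect differed between time points was tested in 1 fit of the 42 libraries after day 2. Over the 7 time points, 5 of the 8 genes passed at an adjusted p under 0.01: Nrip1 (F 68.9, adjusted p 4.6e-15), Rxrg (F 49.0, adjusted p 3.6e-13), Rarg (F 20.1, adjusted p 1.9e-08), Rxra (F 18.4, adjusted p 4.9e-08) and Rarb (F 15.2, adjusted p 3.8e-07). Of all genes tested, 33.2% passed. For the effect at 78 h minus that at 18 h, Nrip1, Rarb and Rxrg passed, each with a negative difference, against 18.5% of genes. For Nrip1 and Rarb this is a smaller rise, and for Rxrg a deeper fall. Rxra differed by 0.46 ± 0.14 (adjusted p 0.012) and was called without RA 78 h replicate 1 (0.51, adjusted p 0.00815). Rara did not pass over the 7 time points (adjusted p 0.014), but leaving out any of 9 of the 12 libraries at 18 h and 78 h gave adjusted p between 0.00148 and 0.00415, so that its side of the threshold was not settled. These were each RA 18 h and each untreated 78 h library, RA 78 h replicate 3, and untreated 18 h replicates 2 and 3. Without RA 8 h replicate 3 and RA 30 h replicate 2, a fit added after the data were seen, the 5 genes that passed over the 7 time points passed again, Rara passed at 0.00369, and Rxra passed for 78 h minus 18 h at 0.40 (adjusted p 0.00754).

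Change with time in each arm was tested against day 2 in fits of 24 libraries that share the 3 day 2 libraries, so the arms are set side by side without a comparison. In untreated organoids, 5 of the 8 genes differed from day 2 at 18 h, when 27.3% of genes did, 7 at 42 h (55.3%) and 7 at 78 h (66.8%). With RA, 6 differed at 18 h (39.7%), 7 at 42 h (52.9%) and 6 at 78 h (58.1%). Nrip1 in untreated organoids was 0.15 ± 0.11 log2 units above day 2 at 18 h (adjusted p 0.33), 0.99 ± 0.11 at 42 h and 2.50 ± 0.10 at 78 h, and with RA 3.35 ± 0.15, 3.60 ± 0.15 and 3.14 ± 0.15. Untreated Nrip1 thus moved late and RA-treated Nrip1 early.

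Rarb was 6.88 ± 0.29, 7.23 ± 0.29 and 6.44 ± 0.29 log2 units above day 2 with RA at these times. In untreated organoids it was 1.06 ± 0.41 (adjusted p 0.041), 1.25 ± 0.40 and 2.52 ± 0.35 above day 2. The untreated call at 42 h (adjusted p 0.0087) was lost without day 2 replicate 2 or 3 or untreated 42 h replicate 1 or 2, at adjusted p between 0.0185 and 0.0466. Rarg fell by 1.08 ± 0.06 log2 units at 42 h and by 1.96 ± 0.06 at 78 h in untreated organoids, and by 2.48 ± 0.17 and 2.75 ± 0.17 with RA.

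Among the RXRs, Rxra rose by 1.47 ± 0.09 log2 units at 42 h and 2.22 ± 0.08 at 78 h untreated, and by 2.24 ± 0.11 and 2.92 ± 0.12 with RA. Rxrg was 1.04 ± 0.09 above day 2 at 42 h and 0.45 ± 0.10 below it at 78 h (log2 -0.45, adjusted p 2.7e-04) in untreated organoids, and with RA it was at -3.28 ± 0.32 and -3.92 ± 0.33. The untreated values of Rxrg at 18 h and 78 h were not called when the run of library numbers was a covariate (0.60, adjusted p 0.0269, and -0.64, adjusted p 0.11). Ncor1 fell by 0.72 ± 0.06 at 42 h untreated and by 0.71 ± 0.11 with RA. Rxrb was not called against day 2 in either arm, with log2 differences between 0.03 and 0.14. In untreated organoids it passed without day 2 replicate 3 at 42 h (0.18, adjusted p 0.0063) and 78 h (0.22, adjusted p 0.000818). At 78 h it also passed with all libraries kept, when 10 counts were required in every library (0.17, adjusted p 0.00407).

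Of 14 neighbouring pairs in the order of the 15 condition means, 7 did not overlap for Rxra, 6 for Nrip1 and 6 for Rarg. The number was 4 for Rxrg and 3 each for Rara, Rarb and Ncor1, whose neighbours otherwise overlapped. Rara ran from RA 8 h at the top to untreated 42 h at the bottom, 2.6-fold apart, and Rarg from day 2 to RA 54 h, 7.4-fold apart. Rxra ran from RA 78 h to RA 8 h (10.4-fold), Rxrg from untreated 30 h to RA 54 h (83.0-fold) and Nrip1 from RA 8 h to day 2 (13.9-fold). Ncor1, the gene with the narrowest order after Rxrb, ran from day 2 to untreated 66 h (1.78-fold).

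Likeness of pattern was measured as Pearson's r of mean log2(CPM + 1) over the 15 conditions with each of 14317 genes of at least 1 CPM. The points share day 2, libraries and the course of time, so r is a description. Closest to Rarb were the Hox genes Hoxb4 (r = 0.989) and Hoxa4 (0.987) and the zinc finger gene Glis2 (0.986). Closest to Nrip1 were Sec22c (0.968), Zfp703 (0.962) and AC126937.2 (0.959), and to Rara Lasp1 (0.96), Zbtb7c (0.956) and Zfp950 (0.946). Rarg was closest to Chchd10 (0.993), Kdm4c (0.99) and Nup160 (0.987), and Rxra to Igfbp4 (0.992), Csk (0.991) and Tspan3 (0.991). For Rxrg they included Tmem154 (0.984) and Mid1ip1 (0.982), for Rxrb they were Rfxank (0.912), Mettl26 (0.9) and Jdp2 (0.897), and for Ncor1 Prr14l (0.976), Emsy (0.973) and Senp3 (0.97). Among the members themselves, r was highest between Nrip1 and Rarb (0.915, the 35th gene in the order of likeness to Nrip1) and lowest between Rarg and Rxra (-0.975).

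The enzymes and binding proteins that set the amount of RA changed over the same time points. Of 12 such genes, 10 were tested at 18 h, and 9 rose with RA and none fell, with a median log2 fold change of 2.8 against 0.023 over all genes, of which 42.6% were called. At 78 h, 4 of 11 tested were higher and 3 lower, when 33.4% of all genes were called, with a median of 0.25 against 0.0015. Cyp26a1, which degrades RA, averaged 2.75 ± 0.43 (SD, n = 3) CPM untreated and 276 ± 14 CPM with RA at 18 h (log2 6.63 ± 0.09), and at 78 h 7.47 ± 1.42 and 5.14 ± 0.94 CPM (log2 -0.54 ± 0.17, adjusted p 0.023). Cyp26b1, another RA-degrading enzyme, went from a log2 fold change of 5.62 ± 0.17 at 18 h to -4.71 ± 0.24 at 78 h, when untreated libraries averaged 108 ± 27 CPM and RA-treated libraries 4.1 ± 1.78 CPM. Crabp1, an RA-binding protein of the cytoplasm, was 0.53 ± 0.09 higher at 18 h and 1.40 log2 units lower at 78 h (-1.40 ± 0.08, adjusted p 1.2e-07). Aldh1a2, which makes RA, was higher with RA from 18 h (0.83 ± 0.16) to 78 h (2.79 ± 0.28). Over the hours in which untreated Nrip1 rose, the untreated mean of Crabp1 went from 12.5 ± 0.9 CPM at 30 h to 1170 ± 24 CPM at 78 h, and that of Cyp26b1 from 0.349 ± 0.177 CPM to 108 ± 27 CPM. Untreated Cyp26a1 went from 3.37 to 7.47 CPM over these hours, and untreated Aldh1a2 went down, from 1.26 to 0.557 CPM. A link of these genes to Nrip1 was not tested.

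The partners of Ncor1 and the coactivators showed smaller differences. Of 12 genes of corepressor complexes, 2 rose and 5 fell with RA at 18 h, with a median of -0.16, and 3 rose and 2 fell at 78 h, with a median of 0.023. The share of all genes called was 42.6% at 18 h and 33.4% at 78 h, so these counts were not far from the background. Ctbp2, a corepressor that also binds Nrip1, was lower at each of the 7 times, with a log2 fold change of -0.87 ± 0.05 at 18 h, -1.41 ± 0.09 at 30 h (346 ± 11 CPM against 131 ± 10 CPM) and -0.37 ± 0.06 at 78 h. Tbl1xr1, a subunit of the Ncor1 complex, was at -0.53 ± 0.06 at 18 h and its relative Tbl1x at 0.29 ± 0.05. Sin3b, a scaffold for histone deacetylases, was 0.16 ± 0.04 higher at 18 h and 1.05 ± 0.05 higher at 78 h.

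Of 11 coactivator genes, 3 rose and 2 fell at 18 h (median 0.0084) and 4 rose and none fell at 78 h (median 0.14), again near the 42.6% and 33.4% of all genes. Ncoa6 was 0.56 ± 0.06 higher at 18 h and 0.81 ± 0.07 higher at 42 h, and Ncoa1 0.33 ± 0.08 higher at 18 h. The arginine methyltransferases Carm1 and Prmt1 were at -0.51 ± 0.06 and -0.39 ± 0.05 at 18 h. Of 10 other nuclear receptors that pair with RXRs, 8 were tested at 18 h, where 1 was called, Nr1h2, an oxysterol receptor, at -0.22 ± 0.05 (adjusted p 0.004). At 78 h, 3 of 10 rose and none fell, with a median of -0.0055, beside 33.4% of all genes called.

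**Figure D3:**
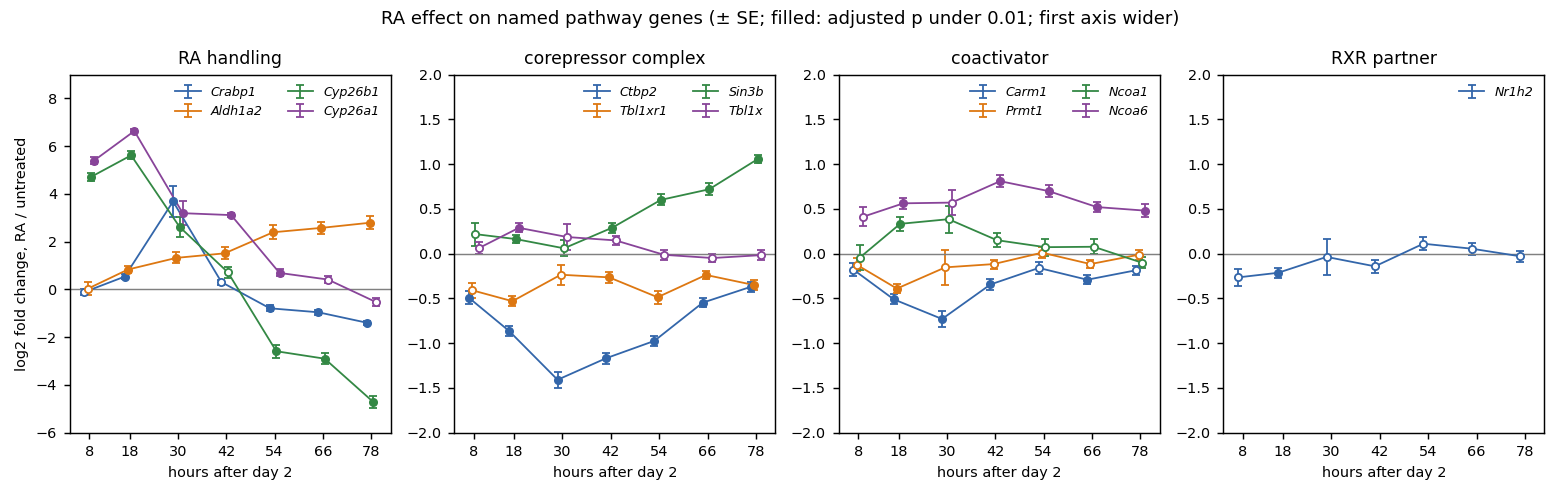
Log2 fold change of RA-treated over untreated organoids against hours after day 2 for named genes of 4 lists, from edgeR fits of 6 libraries each. Error bars are ± SE, filled points passed an adjusted p under 0.01, and the first vertical axis covers a wider range than the others. Cyp26a1 and Cyp26b1 fall from above 5 at 18 h to below 0 at 78 h, while genes of the other lists lie between -1.41 and 1.05.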

How the data were processed

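Neural tube organoids of R1 mouse embryonic stem cells were profiled by poly(A) RNA sequencing with a directional kit. The authors used Trim Galore 0.5.0 for trimming, Bowtie2 2.3.4.1 to remove abundant sequences and STAR for alignment to GRCm38. The table they deposited holds raw counts per gene (featureCounts, Subread 1.6.2), not normalized and not pooled. The strand setting is not given in the sources used here. Library numbers in the sample titles tied each of the 45 columns to a sample. Every 66 h and 78 h library and untreated 54 h replicate 3 had numbers of 10196 to 10208. Day 2 replicate 3 and RA 30 h replicates 2 and 3 had 10131 to 10133. All other libraries, with each untreated 30 h library and each RA 54 h library among them, had earlier numbers. Run and arm are thus not balanced at 30 h or at 54 h. The 66 h and 78 h libraries share their run with untreated 54 h replicate 3 alone. A change from day 2 to 78 h can thus hardly be told apart from a difference between runs. Of 54532 genes, 54409 were placed in the GENCODE M21 annotation.

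Counts were tested with edgeR 4.0.16 in R 4.3.3 (TMM, filterByExpr with a minimum count of 10 and minimum total of 15, glmQLFit and glmQLFTest), in 1 fit of 6 libraries per time point, fits of 24 libraries for each course and 1 fit of 42 libraries for differences between time points. P-values were adjusted after Benjamini and Hochberg across the genes tested. The SE is the size of the log2 fold change divided by the square root of F. Levels in CPM used TMM factors of all 45 libraries. Permutation tests were exact and two-sided, on log2(CPM + 0.01). Scripts were tested on simulated counts. Floors of 3 counts cover counting error alone, because without molecular identifiers a read is not a separate molecule.

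The members, gene lists and tests were chosen with earlier results of these data known. Genes were named by rule: the 8 members, of each list the 2 genes with the highest and the 2 with the lowest log2 fold change at 18 h among those called with a mean of at least 1 CPM, the 3 genes most like each member, and 4 Y chromosome genes. Top2b was added for its overlap with Rarb, and single markers were named after their values were seen. A gene within the rule is not reported here. Alternatives were RLE size factors, DESeq2 1.42.0, removing the filter or requiring 10 counts throughout, a replicate block, other thresholds, 1 fit of all 45 libraries, the run of library numbers (the earliest, 10131 to 10133, and 10196 to 10208) as a covariate or the earliest alone, each library left out, and CPM by library totals.

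Replicate pairs differed by more than sampling noise, since chi-square per gene averaged 1.97 or more in each of 45 pairs. Replicate numbers come from the titles, and no source says that equal numbers were grown together. Deviations of same-numbered libraries correlated above 0.1 in each pair at 66 h (0.211 to 0.522), so numbers were taken to pair the libraries there, and not at the other times. This rests on the data and not on the design. The main test at 66 h used no pairing, and the replicate block was its alternative.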

Additional observations from a re-analysis of the deposited data

Results flagged for a closer look

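The RA effect differed between time points for 5 of the 8 genes, by an edgeR test of the difference itself over the 7 time points. Adjusted p-values were 4.6e-15 for Nrip1, 3.6e-13 for Rxrg, 1.9e-08 for Rarg, 4.9e-08 for Rxra and 3.8e-07 for Rarb. The effect at 78 h minus the effect at 18 h was -2.49 log2 units for Nrip1, -1.84 for Rarb and -1.36 for Rxrg. The gap test for an outlying library was not run, since it needs larger groups than these 3 libraries each. RA 8 h replicate 3 and RA 30 h replicate 2 were found to stand apart by their Y chromosome genes and epithelial markers.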

How the results depend on the processing

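Of 1104 values for single genes with 1 library left out, 1044 kept direction and side of the threshold, 24 lost and 14 gained a call and 22 changed sign. Of 794 under other alternatives, 761 kept both, 16 lost and 8 gained a call and 9 changed sign. The sign changes were in Rxrb and Ncor1, where neither had been called. Libraries were left out one at a time in 78 fits: each of the 6 in a fit per time point, those at day 2, 18, 42 and 78 h in a fit of 24, and those at 18 and 78 h in the fit of 42. For the calls of Rara at 30 h and 66 h, RLE size factors (adjusted p 0.0103 at 30 h), DESeq2 (0.0125 at 66 h) or no filter (0.0161 at 66 h) ended the call. So did the fit of all 45 libraries at 66 h, without (0.0308) and with the run of library numbers as a covariate (0.0260). At 18 h the calls of Rarg and Rxra were lost in both of these fits. Adjusted p was 0.0156 and 0.0125 without the run, and 0.0173 and 0.0135 with it. All 18 h libraries had the earliest numbers and all 66 h libraries the last, so the run could not part the arms there. In untreated organoids against day 2, the fit of all 45 libraries with the run ended the calls of Rarg at 18 h (0.0546) and Rarb at 42 h (0.0411).

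Rxrb changed to -0.0021 at 18 h and -0.0069 at 30 h with DESeq2, to -0.0019 at 30 h with RLE size factors, and to -0.0035 at 30 h and -0.0070 at 66 h with no filter on low counts. At 30 h it was -0.13 with the run of library numbers as a covariate and -0.16 with the earlier numbers alone, and for 78 h minus 18 h it was -0.0021 without the pair of libraries that stand apart. Ncor1 at 54 h was -0.0078 with the run of library numbers. With 1 library left out, Rxrb ranged from -0.14 to 0.094 at 30 h, -0.077 to 0.0083 at 42 h, -0.014 to 0.064 at 54 h, -0.024 to 0.039 at 66 h, -0.0028 to 0.083 at 78 h, -0.023 to 0.10 at RA 42 h against day 2, and -0.062 to 0.079 for 78 h minus 18 h. Ncor1 ranged from -0.27 to 0.0072 at 30 h, -0.034 to 0.058 at 54 h, -0.023 to 0.076 at 66 h and -0.018 to 0.064 at 78 h.

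The number of the 8 genes called stayed within 1.5 times in all but 3 cases: 3 at 18 h and 2 at 78 h when a log2 fold change beyond 1 was also required, and 3 for untreated 18 h against day 2 with the run of library numbers. The replicate block gave 2 called at 8 h, 5 at 30 h and 6 over the 7 time points. Under it the adjusted p was 0.0121 for Rara at 8 h, 0.0225 for Rara at 30 h, 0.0108 for Rarb in untreated 42 h against day 2 and 0.00651 for Rara over the 7 time points. At 30 h, 6 of the 6 libraries were closest to the library of their own number in the other arm, a hint from the data and not from the design. At 66 h, where the numbers were taken to pair the libraries from their correlation alone, 4 of the 6 were closest to their own number. The block changed no call there.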
